A study of Mus musculus with 16 samples.

Results

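Hearts of mouse pups labelled as lacking the transferrin receptor Tfr1 in the heart were compared with wild-type hearts at postnatal day 5. The comparison took the 4 arrays titled as day 5 knockout hearts and the 4 titled as day 5 wild-type hearts. These were 8 of the 16 arrays of the study, and their titles decided which arrays were members. Members, gene lists and genes to be named were chosen with earlier results of these data known. The other 8 arrays are hearts of the same genotypes at day 10. All pups were on a mixed 129 and C57BL6 background and stayed with their mother until collection. Each wild-type array came from the heart of a wild-type pup. Each knockout array came from the heart of a pup labelled as a Tfr1 heart conditional knockout. The labels name neither the Cre driver nor the deleted exons, and they give no sex, litter, hybridisation batch or scan date. Every array carries its own animal number, so each was taken as 1 animal, and p-values measure the spread between these arrays. Gene expression was read from total heart RNA on Affymetrix mouse arrays, as log2 signals of 18193 genes, each represented by its brightest probe set. In whole hearts, fewer cells of a type and less RNA per cell cannot be told apart.

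Tfr1, encoded by Tfrc, sits at the cell surface, binds iron-loaded transferrin and carries it into endosomes, where the iron is released. Tfrc mRNA is itself held stable by iron regulatory proteins when a cell is short of iron. The prolyl hydroxylases of the Egln family need iron and oxygen to mark the alpha subunits of hypoxia-inducible factor (HIF) for destruction. HIF drives genes of glucose uptake, glycolysis and mitophagy, and Egln3 is one of its targets. The newborn heart still moves from glycolysis towards oxidative metabolism, which relies on heme and iron-sulfur proteins.

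The promoters of Tfrc and of the 4 largest rises other than Tfrc are shown because these genes lead the comparison and because Egln3, Bnip3, Slc2a1 and Ak4 are known HIF targets. Each sequence holds the 250 bases before the first listed transcription start in RefSeq (GRCm38.p6), read 5′ to 3′ on the strand of the gene. Capitals mark the letters ACGTG or GCGTG, the core of the HIF motif, or their reverse complements CACGT and CACGC. Tfrc lies on the plus strand and its window is chr16:32608646-32608895. Egln3 lies on the minus strand (chr12:54203875-54204124), Bnip3 on the minus strand (chr7:138909507-138909756), Slc2a1 on the plus strand (chr4:119108495-119108744) and Ak4 on the plus strand (chr4:101419039-101419288).
Tfrc: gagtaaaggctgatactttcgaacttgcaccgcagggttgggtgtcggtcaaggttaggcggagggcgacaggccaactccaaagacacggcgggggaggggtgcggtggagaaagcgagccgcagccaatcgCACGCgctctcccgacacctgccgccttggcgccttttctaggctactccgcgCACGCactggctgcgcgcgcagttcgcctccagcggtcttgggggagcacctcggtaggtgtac
Egln3: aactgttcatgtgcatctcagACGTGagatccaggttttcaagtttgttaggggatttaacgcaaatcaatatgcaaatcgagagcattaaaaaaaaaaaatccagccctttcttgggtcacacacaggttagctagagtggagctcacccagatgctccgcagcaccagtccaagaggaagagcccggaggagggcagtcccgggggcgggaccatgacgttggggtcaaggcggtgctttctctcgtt
Bnip3: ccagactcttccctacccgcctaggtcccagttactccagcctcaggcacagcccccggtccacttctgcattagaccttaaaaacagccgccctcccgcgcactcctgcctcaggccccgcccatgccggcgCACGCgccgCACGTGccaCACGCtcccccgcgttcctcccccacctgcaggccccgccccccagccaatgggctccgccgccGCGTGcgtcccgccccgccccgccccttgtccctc
Slc2a1: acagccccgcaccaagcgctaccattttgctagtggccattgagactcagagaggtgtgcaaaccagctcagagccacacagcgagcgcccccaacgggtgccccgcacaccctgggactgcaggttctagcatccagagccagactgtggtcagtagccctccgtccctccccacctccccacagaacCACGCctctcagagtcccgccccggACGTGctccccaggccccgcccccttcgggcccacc
Ak4: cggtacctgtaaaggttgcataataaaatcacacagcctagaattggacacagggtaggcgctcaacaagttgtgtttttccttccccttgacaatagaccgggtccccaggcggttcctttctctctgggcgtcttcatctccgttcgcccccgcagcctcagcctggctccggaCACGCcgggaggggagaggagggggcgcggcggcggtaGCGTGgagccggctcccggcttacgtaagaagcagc
ACGTG was found in 16.6% and GCGTG in 28.2% of 32851 windows of the same length, and either in 38.6%. Counting 1 window a gene, either motif was found in 8 of the 14 genes that rose (57.1%), in 21 of the 41 genes that fell and had a listed window (51.2%), and in 38.6% of 27025 genes. A match is a description of the letters and shows no binding.

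The arrays were alike in overall signal. Array medians ran from 6.28 to 6.32, and the mean correlation of an array with its own group ran from 0.997 to 0.998. Signal of cardiomyocyte markers was present on every array, with a mean over 9 markers between 12.94 and 13.41. The 3′ minus 5′ difference of beta-actin, a sign of RNA quality, ran from 1.005 to 1.07 in wild-type and from 0.93 to 1.20 in knockout arrays. The Y-linked genes Eif2s3y, Kdm5d and Uty were expressed on all 8 arrays and Xist stayed between 6.30 and 6.75, but the mean of the Y-linked genes leaned with genotype, from 8.04 to 8.23 in wild-type and from 8.16 to 8.51 in knockout arrays.

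The targeted gene was read first. Signal of the 5′ part of the Tfrc transcript was lower in the knockout, while the 5 other Tfrc probe sets measured higher and 1 of them was called. The array's control probe set at the 5′ end measured 6.19, 6.30, 6.40 and 6.26 in wild-type replicates 1 to 4 and 4.53, 4.82, 4.78 and 4.58 in knockout replicates 1 to 4. No knockout value came near the wild-type range, and the difference was -1.61 (SE 0.075, limma adjusted p = 1.02e-05 over 45101 probe sets). The median of all probe sets was 6.30, so the wild-type values lay near it and the knockout values well under it, and the size of this fall is uncertain.

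The brightest Tfrc probe set moved the other way. It measured 11.63, 11.73, 12.47 and 11.85 in the wild-type arrays and 12.84, 12.93, 13.01 and 12.96 in the knockout arrays. All knockout values were higher, the knockout arrays lay close together, and wild-type replicate 3 stood above the other wild-type arrays. This was a rise of 1.01 (SE 0.15, limma adjusted p = 0.0203 over all genes), or 2.02-fold. The other gene probe sets differed by 0.63 (SE 0.125, limma adjusted p = 0.103) and 1.08 (SE 0.274, limma adjusted p = 0.237). The middle and 3′ controls differed by 0.97 (limma adjusted p = 0.106) and 0.57 (limma adjusted p = 0.199). None of these was called. Their p-values were adjusted over 45101 probe sets, where the limma adjusted p of the brightest probe set was 0.0232. Wild-type replicate 3 was the highest wild-type array in all 6 probe sets, as the plot of the Tfrc probe sets shows. Leaving out wild-type replicate 3 or knockout replicate 1 kept the call of the brightest probe set, which ended without any 1 of the other 6 arrays, with a limma adjusted p of up to 0.0909. The labels do not state which part of the gene was removed, so a probe set outside that part does not check the label.

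**Figure D1:**
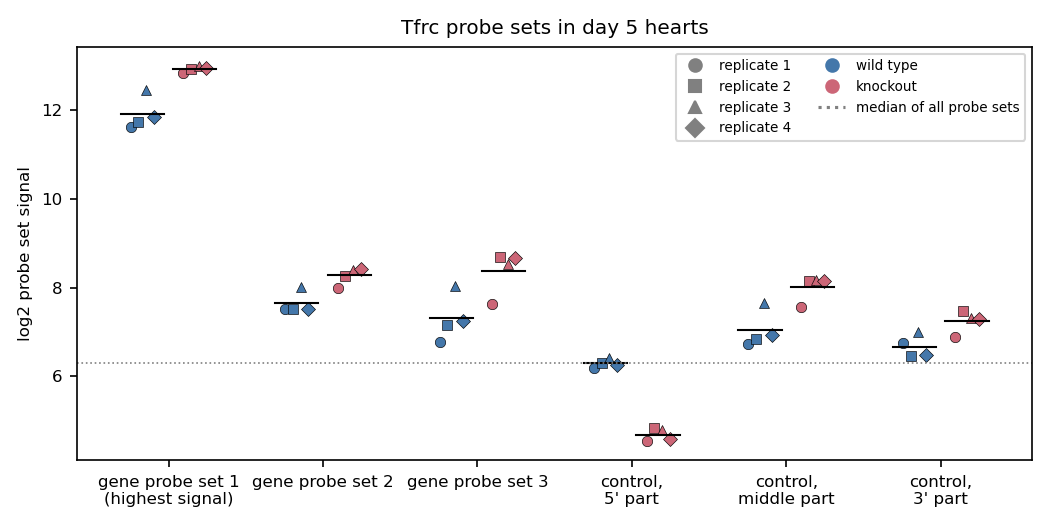
Log2 signal of the 6 Tfrc probe sets in each of the 8 day 5 arrays; symbols are replicates, colours genotypes, black bars group means, and the dotted line is the median of all probe sets. The 5′ control fell by 1.61, while the brightest probe set rose by 1.01.

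The comparison of knockout with wild type asked which genes had changed in the heart by day 5. Rises were led by genes of the response to low oxygen: the prolyl hydroxylase Egln3 rose 2.16-fold, the mitochondrial adenylate kinase Ak4 1.98-fold, the mitophagy receptor Bnip3 1.87-fold and the glucose transporter Slc2a1 1.73-fold. In all, 5 of the 14 rises were in the list of 35 measured HIF targets, where 0.077% of all genes were called higher. Alas1, which makes the first committed step of heme synthesis, rose 1.61-fold. Falls were more numerous and included the cilium-associated gene Cabcoco1, lower by 3.32-fold, the interferon-inducible GTPase Iigp1, lower by 3.0-fold, and the calcium-binding protein Casq1 of the sarcoplasmic reticulum, lower by 2.32-fold. Asb5 and the actin-capping tropomodulin Tmod4 fell as well. They were 2 of 42 measured genes in a list of muscle genes, where 0.275% of all genes were called lower. Of the 42, 14 measured higher and 28 lower, with a median of -0.055. At an unadjusted p under 0.05 there were 11 lower and 1 higher, against 5.82% and 4.63% of all genes. The lists of genes of mitochondrial respiration, fatty acid oxidation and iron-sulfur cluster assembly held no called member, where 0.352% of all genes were called. Cox6b2, a testis isoform of a cytochrome oxidase subunit, is outside these lists and fell by 0.52.

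Of 18193 genes, 64 were called at a limma adjusted p under 0.05 (0.352%), 14 of them higher (0.077%) and 50 lower (0.275%) in the knockout. These shares over all genes are the background for the called members of every gene list. In each called gene the 4 knockout values lay outside the wild-type range. Over all genes, 2.51% had all knockout values above and 3.67% all below the wild-type values, and 1901 genes (10.4%) had an unadjusted p under 0.05. Rises ran from 0.32 to 1.11 and falls from -0.24 to -1.73 on the log2 scale. Only 2 rises and 4 falls reached a size of 1. The counts depended on single arrays: without knockout replicate 1 there were 48 rises and 80 falls, and without knockout replicate 3 there were 5 and 19. A fit that included the mean of the Y-linked genes called 2 rises and 1 fall.

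**Figure D2:**
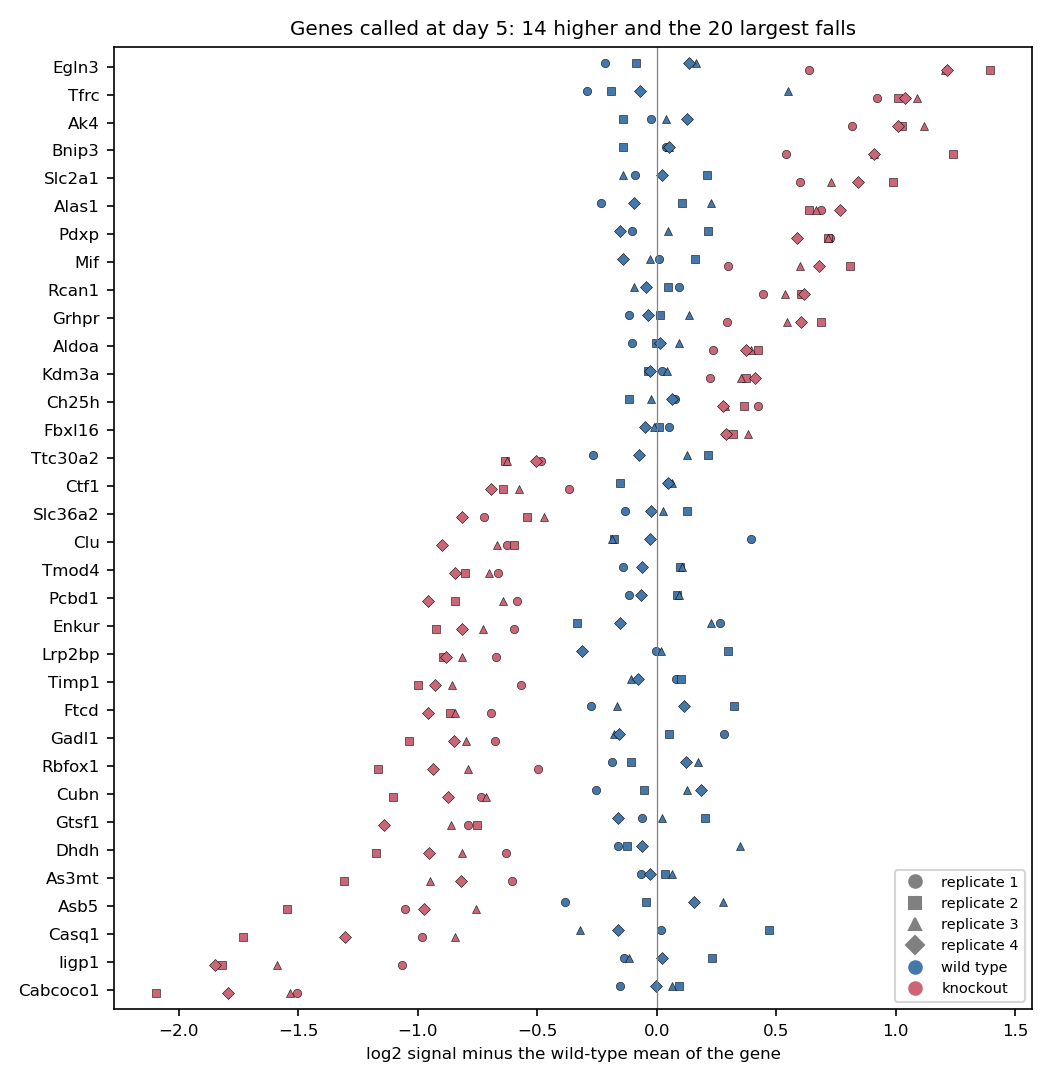
Log2 signal of each array minus the wild-type mean of the same gene, for the 14 genes called higher and the 20 largest named falls. Knockout replicate 1 (red circles) lies nearest to the wild-type arrays in many of the genes, such as Egln3, Bnip3, Iigp1 and Rbfox1.

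The knockout arrays did not move equally. Over the 64 called genes, knockout replicate 1 was the knockout array nearest to wild type in 38 and the farthest in 4. Knockout replicate 2 was the nearest in 4 and the farthest in 32, and knockout replicate 4 the nearest in 4 and the farthest in 23. Knockout replicate 3 was the nearest in 18 and the farthest in 5. The position of replicate 1 differed between genes: it was the nearest array in 11 of the 14 rises, yet it held the highest Ch25h and Pdxp values of all arrays. Its beta-actin 3′ minus 5′ difference was the highest of the 8 arrays, 1.20, against 0.93 to 1.07 in the rest, and the part of this in its position was not tested.

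Among the sensors of oxygen and iron, Egln3 measured 9.33, 9.46, 9.71 and 9.68 in wild-type hearts and 10.18, 10.94, 10.75 and 10.76 in knockout hearts. Knockout replicate 1 was the lowest of its group and still above every wild-type array. Egln3 rose by 1.11 (SE 0.15, limma adjusted p = 0.0106), and a second probe set rose by 1.05 (limma adjusted p = 0.0103 over all probe sets). Its relatives Egln1 and Egln2, the other prolyl hydroxylases that act on HIF, differed by 0.13 (limma adjusted p = 0.459) and 0.10 (limma adjusted p = 0.569), with overlapping groups. Kdm3a, an iron-dependent histone demethylase and HIF target, measured 9.41, 9.35, 9.43 and 9.36 in wild-type hearts and 9.61, 9.76, 9.74 and 9.80 in knockout hearts. It rose by 0.34 (limma adjusted p = 0.0229). Of 28 measured iron-dependent oxygenases these were the only members called, and the median difference of the list was 0.018, against 0.0010 over all genes. Among the uncalled members P4ha1, a subunit of collagen prolyl hydroxylase, measured a difference of 0.40 (limma adjusted p = 0.0878), P4ha2 one of 0.15, Fto one of -0.13 and Egln1 the value above.

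Ak4 was the 1 called member of 13 measured adenylate and creatine kinases (4 higher, 9 lower, median -0.023). Bnip3 was that of 21 genes of mitophagy and autophagy (10 higher, 11 lower, median -0.006). Over all genes 0.077% were called higher. Ak4, which balances adenine nucleotides in the mitochondrial matrix, measured 8.0, 7.88, 8.06 and 8.15 in wild-type hearts and 8.84, 9.05, 9.14 and 9.03 in knockout hearts. The groups were far apart compared with their spread, and Ak4 had the smallest adjusted p of the rises (difference 0.99, SE 0.075, limma adjusted p = 0.000647). Of its 4 other probe sets 1 rose by 0.97 (limma adjusted p = 0.0064 over all probe sets), and the rest, not called, lay between -0.10 and 0.34. Ak1, Ak3 and Ak5 differed by -0.012, -0.049 and 0.005, none called. Bnip3 measured 11.44, 11.26, 11.45 and 11.45 in wild-type hearts and 11.94, 12.64, 12.31 and 12.31 in knockout hearts. Knockout replicates 1 and 2 mark the lowest and highest knockout values, and Bnip3 rose by 0.90 (SE 0.12, limma adjusted p = 0.0106). The calls of Egln3 and Bnip3 ended without knockout replicate 3 or 4, at a limma adjusted p of up to 0.0523.

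Of the genes of glucose uptake and glycolysis 2 rose. Slc2a1, the glucose transporter of most fetal tissues, measured 8.08, 8.38, 8.03 and 8.19 in wild-type hearts and 8.77, 9.16, 8.90 and 9.01 in knockout hearts. It rose by 0.79 (SE 0.094, limma adjusted p = 0.00817), with no overlap. Aldoa, which splits fructose bisphosphate, measured 13.28, 13.38, 13.48 and 13.40 against 13.62, 13.81, 13.78 and 13.76. It rose by 0.36 (limma adjusted p = 0.0394) and is among the brightest genes on the array. These were the 2 called members of 23 measured genes of glycolysis and glucose uptake, where 0.077% of all genes were called higher. Of the 23, 21 measured higher (50.5% of all genes did), with a median difference of 0.23. At an unadjusted p under 0.05 there were 13 higher and 0 lower, against 4.63% and 5.82% of all genes.

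The uncalled glycolysis genes with the smallest p were Pfkl, a phosphofructokinase subunit, with a difference of 0.68 (limma adjusted p = 0.0527), Pgk1 with 0.23 (limma adjusted p = 0.0697), Ldha with 0.26 (limma adjusted p = 0.0794) and Pgam1 with 0.42 (limma adjusted p = 0.0822). The median difference was 0.26 over 5 transporters, 0.23 over 11 genes of the upper steps and 0.23 over 7 of the lower steps. The median of the list was 0.17 when all probe sets of a gene were averaged.

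Over 35 measured HIF targets, 29 measured higher, where 50.5% of all genes did. Of the 35, 5 were called, all of them rises: Ak4, Slc2a1, Egln3, Bnip3 and Kdm3a (0.077% of all genes were called higher). The median difference was 0.15. Slc2a1, Slc16a3, Pfkfb3 and Pfkfb4 are counted in the list of glycolysis and glucose uptake too. At an unadjusted p under 0.05 there were 18 higher and 2 lower, against 4.63% and 5.82% of all genes. By role, all 13 genes of oxygen signalling measured higher (median 0.14), as did all 6 of mitochondria and mitophagy (median 0.32), and 10 of the 16 other targets (median 0.12). The uncalled targets with the smallest p were Pdk1, the kinase that shuts pyruvate out of mitochondrial oxidation, with a difference of 0.41 (limma adjusted p = 0.0658), Ero1a with 0.32 (limma adjusted p = 0.0750), P4ha1 as above and the lactate exporter Slc16a3 with 0.34 (limma adjusted p = 0.139). HIF's own subunits are regulated as proteins. Their mRNAs measured 0.021 higher for Hif1a and 0.21 higher for Epas1, neither called.

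Endothelial markers measured higher beside the HIF targets, and Flt1 is in both lists. All 15 markers were higher in the knockout, where 50.5% of all genes were, and none was called. At an unadjusted p under 0.05 there were 11 higher, against 4.63% of all genes. The median difference was 0.16. Their mean level ran from 9.50 to 9.59 in wild-type hearts and from 9.65 to 9.83 in knockout hearts, without overlap. Plvap, a component of the diaphragms of fenestrated vessels, differed by 0.46 (limma adjusted p = 0.0669), the sialomucin Emcn by 0.32 (limma adjusted p = 0.134), Egfl7 by 0.20 (limma adjusted p = 0.189) and Eng by 0.17 (limma adjusted p = 0.263). The part of the endothelial markers in the values of the HIF targets was not tested. The mean of the cardiomyocyte markers ran from 13.06 to 13.41 in wild-type hearts and from 12.94 to 13.10 in knockout hearts, with a median difference of -0.023 over 9 genes.

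**Figure D3:**
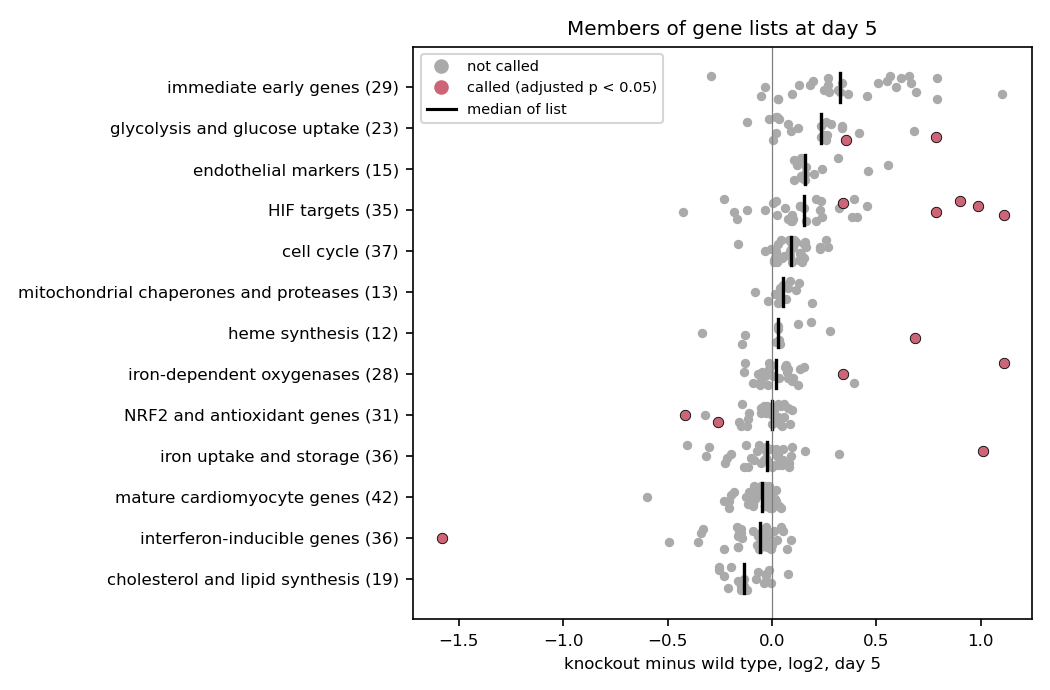
Difference between knockout and wild type (log2) of every measured member of 13 gene lists, the number measured in brackets; red points are called genes and black bars list medians. Immediate early genes, glycolysis, endothelial markers and HIF targets have the highest medians, and cholesterol synthesis the lowest.

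Of 36 measured genes of iron uptake and storage, 16 measured higher and 20 lower, the median difference was -0.026 and Tfrc was the one called member. The 5 genes of transferrin iron uptake, among them the endosomal iron transporter Slc11a2 with a difference of 0.32 (limma adjusted p = 0.279), had a median of 0.081. The 5 genes of storage and chaperones had a median of -0.025 and the 8 genes of other uptake routes one of -0.005, with 0 called. Fbxl5, the ubiquitin ligase subunit that removes iron regulatory protein 2 when iron is plentiful, measured 9.06 ± 0.02 in wild-type hearts and 8.75 ± 0.12 in knockout hearts (SD, n = 4 each). Its difference of -0.32 was not called (limma adjusted p = 0.0607). The mitochondrial iron importer Slc25a28 differed by -0.22 and Hjv by -0.41, neither called.

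Heme synthesis was uneven along the pathway. Alas1 measured 10.35, 10.69, 10.81 and 10.49 in wild-type hearts and 11.27, 11.22, 11.25 and 11.35 in knockout hearts. The knockout arrays lay within a narrow band above all wild-type arrays, and Alas1 rose by 0.69 (SE 0.088, limma adjusted p = 0.00885), in a second probe set by 0.48 (limma adjusted p = 0.0325 over all probe sets). It was the only called gene of 12 measured, with a list median of 0.031. The erythroid isoform Alas2 differed by 0.19 (limma adjusted p = 0.747). Of the enzymes further down, Ppox differed by -0.34 (limma adjusted p = 0.0687), Cpox by 0.28 (limma adjusted p = 0.199), Urod by -0.13 (limma adjusted p = 0.307) and Uros by -0.14 (limma adjusted p = 0.415). Hebp2, a heme-binding protein outside this list, fell by 0.50, but its other probe sets differed by -0.23 and 0.015, neither called. It kept its call in 3 of the 8 fits with 1 array left out.

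Of 9 measured genes of tetrahydrobiopterin and vitamin B6, Pdxp rose and Pcbd1 fell. In that list 7 genes measured higher and 2 lower, with a median of 0.052. Pdxp, which removes the phosphate from pyridoxal phosphate, the cofactor that Alas1 uses, measured 7.51, 7.83, 7.66 and 7.46 in wild-type hearts and 8.34, 8.33, 8.33 and 8.20 in knockout hearts. It rose by 0.69 (SE 0.077, limma adjusted p = 0.00669), while the kinase of the reverse step, Pdxk, differed by 0.17 and was not called. Pcbd1, which recycles tetrahydrobiopterin and binds the transcription factor HNF1, measured 8.85, 9.05, 9.06 and 8.90 against 8.38, 8.12, 8.32 and 8.01. It fell by 0.76 (SE 0.086, limma adjusted p = 0.00669), without overlap. Its paralog Pcbd2 differed by 0.031 and Pts, an earlier enzyme of the same cofactor, by -0.18, and the later enzymes Spr and Qdpr by 0.052 and 0.043, none called.

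The other rises came from several processes. Rcan1, an inhibitor of calcineurin that its own target induces, measured 10.07, 10.02, 9.88 and 9.93 in wild-type hearts and 10.42, 10.58, 10.51 and 10.59 in knockout hearts. It rose by 0.55 (SE 0.059, limma adjusted p = 0.0062), and its relatives Rcan2 and Rcan3 differed by -0.016 and 0.13, neither called. Mif, a cytokine, rose by 0.60 (limma adjusted p = 0.0412) in its brightest probe set, from a range of 11.84 to 12.14 to one of 12.28 to 12.79. Other Mif probe sets differed by -0.052 and 0.063, so the probe sets of this gene do not give 1 answer. Grhpr, a glyoxylate reductase, rose by 0.53 (limma adjusted p = 0.0277), the F-box protein gene Fbxl16 by 0.32 (limma adjusted p = 0.0124) and cholesterol 25-hydroxylase, Ch25h, by 0.34 (limma adjusted p = 0.0409). The level of Ch25h was low, with a knockout mean of 5.88 below the array median of 6.30.

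Among the falls, Cabcoco1, a calcium-binding coiled-coil protein linked to cilia, measured 8.94, 9.19, 9.16 and 9.09 in wild-type hearts and 7.59, 7.0, 7.56 and 7.30 in knockout hearts. Its groups were more than 1 log2 unit apart at their nearest points, and it fell by 1.73 (SE 0.12, limma adjusted p = 0.000442). Enkur and Ttc30a2, which also belong to cilia or flagella, fell by 0.77 (limma adjusted p = 0.0409) and 0.56 (limma adjusted p = 0.0412). The signal of both was low, with knockout means of 5.36 and 4.08, and each kept its call in 2 of the 8 fits with 1 array left out. The other probe set of Ttc30a2 differed by -0.255 (limma adjusted p = 0.548 over all probe sets). No list of cilium genes was measured, so the share of such genes that fell or rose is not given.

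Casq1 and Tmod4 fell. The 14 mature cardiomyocyte genes of calcium and excitation and the 17 of the sarcomere held 0 called members. Over all genes 0.275% were called lower. Of the 14 genes, 13 measured lower (median -0.090), and of the 17, 15 did (median -0.023). Casq1, the calsequestrin most abundant in fast skeletal muscle, measured 8.78, 9.23, 8.44 and 8.60 in wild-type hearts and 7.78, 7.03, 7.92 and 7.46 in knockout hearts. Both groups were wide and did not overlap, and Casq1 fell by 1.21 (SE 0.20, limma adjusted p = 0.0398). The cardiac isoform Casq2 differed by -0.11 at a level of 12.62 in wild-type hearts and was not called (limma adjusted p = 0.381). Tmod4, the tropomodulin of skeletal muscle, measured 6.65, 6.89, 6.90 and 6.73 against 6.13, 5.99, 6.09 and 5.95, with a knockout mean below the array median. Tmod4 fell by 0.75 (SE 0.068, limma adjusted p = 0.00255), while Tmod1, the tropomodulin most abundant in heart, differed by -0.11, Tmod2 by -0.054 and Tmod3 by 0.061, none called.

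Asb5, a substrate receptor of ubiquitin ligases expressed in muscle, measured 8.06, 8.40, 8.72 and 8.60 in wild-type hearts and 7.39, 6.90, 7.69 and 7.47 in knockout hearts. It fell by 1.08 (SE 0.17, limma adjusted p = 0.0284). Of its relatives, Asb18 differed by -0.31, Asb14 by -0.30, Asb11 by -0.26 and Asb2 by -0.21, and none was called. Of 42 measured genes of mature cardiomyocytes 36 measured lower, the median difference was -0.049 and 0 were called. At an unadjusted p under 0.05 there were 7 lower and 0 higher, against 5.82% and 4.63% of all genes. The smallest p of the list belonged to Ckmt2, the mitochondrial creatine kinase of muscle. It measured 12.12 ± 0.07 in wild-type hearts and 11.53 ± 0.25 in knockout hearts (SD, n = 4 each, limma adjusted p = 0.0534). Hand2 differed by -0.23, Casq2 as above and the gap junction gene Gja1 by -0.11. Skeletal muscle markers had a median difference of 0.012 over 9 genes, with mean levels from 6.0 to 6.09 in wild-type hearts and from 5.87 to 6.07 in knockout hearts.

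Calls differed in how far they rested on single arrays. Of the rises, Ak4, Pdxp, Alas1, Rcan1 and Slc2a1 stayed called with any 1 of the 8 arrays left out. The other 9 lost the call without at least 1 array. Of these 8 fits, Ch25h kept the call in 0, Kdm3a and Mif in 1 each, and Aldoa, Grhpr and Tfrc in 2 each. Fbxl16 kept it in 5, and Bnip3 and Egln3 in 6 each. Among the 20 largest falls Cabcoco1, Iigp1, Gtsf1, Cubn, Gadl1, Timp1, Pcbd1, Tmod4 and Slc36a2 stayed called throughout, and Dhdh, Ftcd, Ctf1, Lrp2bp and Ttc30a2 were among those that did not. As3mt lost its call without knockout replicate 3 alone (limma adjusted p = 0.0502). Casq1, Rbfox1 and Enkur each lost it without 6 of the 8 arrays, with a limma adjusted p of up to 0.142, 0.110 and 0.145, Asb5 without 5 of them (up to 0.0960) and Clu without 7 (up to 0.148).

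**Figure D4:**
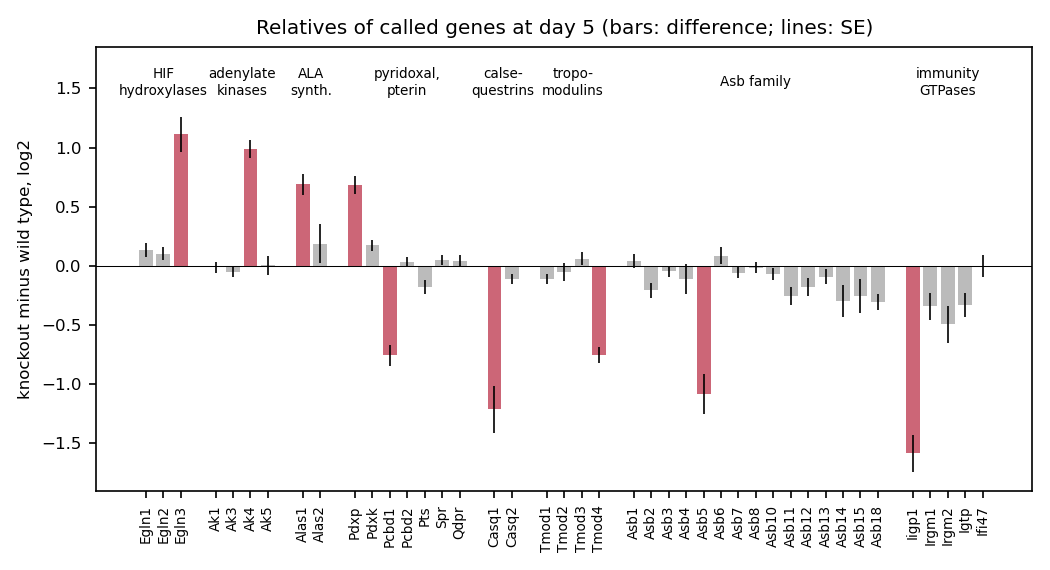
Difference between knockout and wild type (log2, bars, with the SE as lines) for families of called genes; red bars are called genes. In most of these families 1 member was called, such as Egln3, Ak4, Alas1, Tmod4, Asb5 and Iigp1. Each family was chosen because it holds a called gene, so at least 1 call in each was given in advance.

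Iigp1, a GTPase that interferon induces against intracellular pathogens, measured 9.09, 9.46, 9.11 and 9.25 in wild-type hearts and 8.16, 7.41, 7.64 and 7.38 in knockout hearts. Knockout replicate 1 again stood nearest to the wild-type arrays. Iigp1 fell by 1.58 (SE 0.155, limma adjusted p = 0.00397), and its other probe set fell by 1.33 (limma adjusted p = 0.00096 over all probe sets). It was the 1 called member of 36 measured interferon-inducible genes, of which 29 measured lower, with a median of -0.057. Its 9 interferon-inducible GTPases, 5 immunity-related GTPases and 4 guanylate-binding proteins, all measured below 0 (median -0.15), but Ifi47 at -0.003, Gbp6 at -0.022 and Gbp7 at -0.025 were close to it. Irgm2 differed by -0.49 (limma adjusted p = 0.285), Irgm1 by -0.34 (limma adjusted p = 0.319), Igtp by -0.33 (limma adjusted p = 0.285) and the transcription factor subunit Irf9 by -0.23 (limma adjusted p = 0.381). Macrophage markers had a median difference of -0.022 over 11 genes, with ranges of 7.42 to 7.75 in wild-type hearts and 7.45 to 7.75 in knockout hearts.

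Of the antioxidant genes 2 fell. Nqo1, a quinone reductase, measured 8.0, 8.21, 8.02 and 8.24 in wild-type hearts and 7.84, 7.63, 7.67 and 7.65 in knockout hearts. It fell by 0.42 (SE 0.071, limma adjusted p = 0.0409), and its knockout replicate 1 stood apart, above the rest of its group. Gclm, the modifier subunit of the enzyme that starts glutathione synthesis, fell by 0.26 (limma adjusted p = 0.0409), from a range of 9.61 to 9.71 to one of 9.34 to 9.41. These were the called members of 31 measured NRF2 and antioxidant genes, of which 15 measured higher and 16 lower, with a median of -0.001. Gpx3 differed by -0.32 (limma adjusted p = 0.0769), Me1 by -0.16, Gstp1 by -0.11 and Keap1 by -0.11. Gstt2, a glutathione transferase, fell by 0.49 and Gpx7, a peroxidase of the endoplasmic reticulum, by 0.42, both called and outside this list. With each of the 8 arrays left out in turn, Nqo1 kept its call in 2 fits, Gclm and Gpx7 in 1 each and Gstt2 in all 8.

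Genes of secreted and surface proteins were also among the falls. Timp1, an inhibitor of matrix metalloproteases, measured 9.07, 9.09, 8.88 and 8.91 in wild-type hearts and 8.42, 7.99, 8.13 and 8.06 in knockout hearts. It fell by 0.84 (SE 0.091, limma adjusted p = 0.0062), while Timp2, Timp3 and Timp4 differed by -0.13, -0.047 and 0.21, none called. Fibroblast markers measured lower in 11 of 12 genes, with a median of -0.12 and 0 called, and their mean level ran from 10.60 to 10.75 in wild-type hearts and from 10.44 to 10.67 in knockout hearts. Their part in the fall of Timp1 was not tested. Clu, an extracellular chaperone, fell by 0.70 (limma adjusted p = 0.0440), with wild-type replicate 1 at 11.93 and the other wild-type arrays between 11.35 and 11.51. Ctf1, cardiotrophin 1, a cytokine that promotes growth of cardiomyocytes, measured 7.72, 7.52, 7.74 and 7.72 against 7.31, 7.03, 7.10 and 6.98. Ctf1 fell by 0.57 (limma adjusted p = 0.0124). The cytokine Il23a fell by 0.51 and the chemokine Ccl12 by 0.38. Cubn, an endocytic receptor of vitamin B12 and transferrin in kidney, fell by 0.86 (limma adjusted p = 0.00852), and Lrp2bp, which binds its partner megalin, by 0.81 (limma adjusted p = 0.0106). Cubn was the 1 called member of 14 measured endocytic receptors of vitamins and partners of transferrin, where 0.275% of all genes were called lower. Of the 14, 11 measured higher, with a median of 0.044. Cubn and Lrp2bp were dim, with knockout means of 5.78 and 5.79. The other probe sets of Lrp2bp differed by -0.031, -0.061 and -0.034 and that of Cubn by -0.41, none called.

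As3mt, which methylates arsenic, measured 8.46, 8.56, 8.59 and 8.50 in wild-type hearts and 7.92, 7.22, 7.58 and 7.71 in knockout hearts, and fell by 0.92 (limma adjusted p = 0.00984). Gadl1, a decarboxylase of acidic amino acids, fell by 0.84 (limma adjusted p = 0.00852), but its other probe set differed by -0.27 (limma adjusted p = 0.403 over all probe sets). Dhdh, a dihydrodiol dehydrogenase, fell by 0.89 (limma adjusted p = 0.0169), and Ftcd, an enzyme of histidine and folate metabolism, by 0.84 (limma adjusted p = 0.0136), both with knockout means under the array median. The amino acid transporter Slc36a2 fell by 0.64 (limma adjusted p = 0.00885), also to a mean under that median. Rbfox1, a splicing regulator of muscle and brain, measured 8.88, 8.96, 9.24 and 9.19 against 8.57, 7.90, 8.28 and 8.13, and fell by 0.85 (limma adjusted p = 0.0253). Gtsf1, known from the small RNA pathway of the germline, fell by 0.89 (limma adjusted p = 0.0062), but its other probe set differed by -0.045.

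The further falls were smaller. Kcne1, a subunit of the slow delayed rectifier potassium channel of the heart, fell by 0.46 at a wild-type level of 12.06, Slc47a1, an exporter of organic cations, by 0.46, Grb14, an adaptor that restrains the insulin receptor, by 0.33 and Frem2, a protein of the extracellular matrix, by 0.34. Cox6b2, a testis isoform of a cytochrome oxidase subunit, fell by 0.52 and Tomm20l, a relative of a mitochondrial import receptor, by 0.54. Kinase and ligase genes included Pak6 (-0.55) and Lnx1 (-0.51). Called falls also comprised Tmem141 (-0.49), Lix1 (-0.48), Cryzl2 (-0.45), Sorl1 (-0.42), Egflam (-0.37), Tspyl4 (-0.37), Ank1 (-0.36), Polr1e (-0.32), Nr2c2ap (-0.31), Plin3 (-0.26) and Mnd1 (-0.24). The other 4 were gene models without a proper symbol. The median fall was -0.52 and the median rise 0.64. With each of the 8 arrays left out in turn, Sorl1, Polr1e, Plin3 and Mnd1 kept the call in 0 fits. Kcne1, Ank1, Grb14 and Nr2c2ap kept it in 1 each, and Cox6b2, Tomm20l, Pak6, Lnx1 and Tmem141 in all 8. Over all called genes, 44 of 51 other probe sets had the same sign and 10 were called. Among them, 1 of Ank1 (0.145) and that of Grb14 (0.140) measured higher, while 1 each of Kcne1, Tmem141 and Sorl1 was called lower.

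Several lists held many members on one side of 0 and no called gene. Of 29 measured immediate early genes, which cells switch on within minutes of a stimulus, 26 measured higher, with a median difference of 0.33, the highest of the lists described. At an unadjusted p under 0.05 there were 11 higher and 1 lower, against 4.63% and 5.82% of all genes. Knockout replicate 1 stood apart: it lay at or below the wild-type mean in 20 of the 29 genes, against 1, 4 and 3 genes for knockout replicates 2, 3 and 4. Without it the median was 0.46 and 4 genes were called, and with the mean of the Y-linked genes in the fit the median was 0.20. Junb measured 7.13 ± 0.19 in wild-type hearts and 7.92 ± 0.55 in knockout hearts (SD, n = 4 each, limma adjusted p = 0.230). Dusp6 differed by 0.37, Klf10 by 0.45 and Ier2 by 0.33. Mitochondrial chaperones and proteases measured higher in 11 of 13 genes, with a median of 0.055, a difference of 0.19 for the protease Afg3l2 and one of 0.13 for the chaperonin Hspe1.

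Cell cycle genes measured higher in 34 of 37 cases with a median of 0.094. Their mean level ran from 9.06 to 9.58 in wild-type hearts and from 9.29 to 9.43 in knockout hearts, so the knockout range lay inside the wild-type range. Ccnd1, a cyclin of early cycle entry, differed by 0.14 and Ccne2 by 0.27. Cholesterol and lipid synthesis measured lower in 18 of 19 genes, with a median of -0.13 and examples in Fasn (-0.25) and Dhcr7 (-0.23). This median was -0.015 without wild-type replicate 2. In the 33 genes of complex I, the 17 of complex IV, the 16 of ATP synthase, the 21 of the tricarboxylic acid cycle and the 25 of fatty acid oxidation, medians lay between -0.011 and 0.025 and 0 genes were called. The 20 genes of iron-sulfur cluster assembly had a median of 0.026. The 32 genes of the integrated stress response had one of 0.040, again with 0 called in both lists. The share of all genes called was 0.352%, so 0 called in lists of these sizes does not set them apart.

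The day 10 arrays, which share no animal with the day 5 arrays, showed whether the called genes also differed at the later age. Of the 64 genes, 62 had the same direction at day 10 and 49 were called in that direction, 11 of the 14 rises and 38 of the 50 falls, where the share of all genes called at that age was 8.64%, with 4.24% higher and 4.4% lower. At that age 48.1% of all genes measured higher and 51.9% lower. No gene was called in the other direction. The median difference went from 0.64 to 0.95 for the rises and from -0.52 to -0.82 for the falls, and 11 rises and 36 falls were larger at day 10. Values of the 2 ages were on different scales, so a log2 unit need not mean the same at both.

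The difference between the changes was itself called for 11 of the 64 genes, against 2.65% of all genes. Slc2a1 rose by 0.79 at day 5 and by 2.01 at day 10 (limma adjusted p of the difference 0.00734). Mif rose by 0.60 and 1.67 (limma adjusted p = 0.00177), Ak4 by 0.99 and 1.83 (limma adjusted p = 0.00277) and Pdxp by 0.69 and 1.18 (limma adjusted p = 0.0455). For Tmod4 the differences were -0.75 and -2.48 (limma adjusted p = 7.63e-05), for Cabcoco1 -1.73 and -3.60 (limma adjusted p = 0.00852), for Asb5 -1.08 and -2.14 (limma adjusted p = 0.0384) and for Ctf1 -0.57 and -1.24 (limma adjusted p = 0.00333). The other 3, Tmem141, Cryzl2 and Nqo1, also fell further at day 10.

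Some day 5 changes were not called at day 10. Tfrc differed by 0.38 there (limma adjusted p = 0.187), Alas1 by 0.16 (limma adjusted p = 0.690) and Fbxl16 by 0.039 (limma adjusted p = 0.894). The exceptions in direction were Timp1, at 0.47 (limma adjusted p = 0.543), and Ccl12, at 0.035 (limma adjusted p = 0.949). For none of these 5 was the difference between the ages called. Casq1 (-1.18) and Dhdh (-0.82) were about as far below wild type at day 10 as at day 5, and both were called at both ages.

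**Figure D5:**
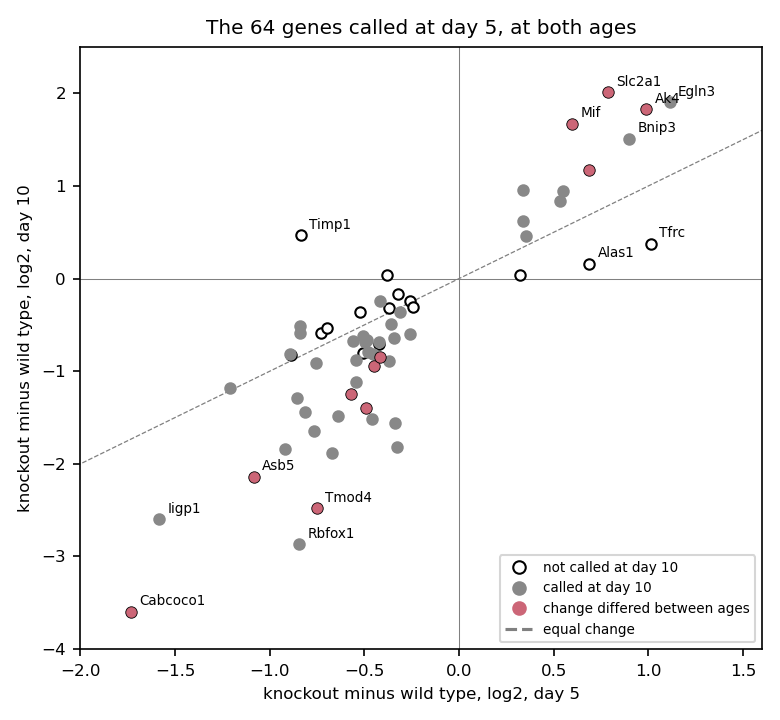
Difference between knockout and wild type (log2) at day 5, on the horizontal axis, and at day 10, on the vertical axis, for the 64 genes called at day 5; the dashed line marks equal change. Of these, 62 lie on the same side of 0 at both ages and 11, in red, had changes that differed between the ages.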

How the data were processed

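The authors deposited log2 signals of 45101 Affymetrix probe sets; per the submitters' processing notes Partek 6.5 and RMA were used, with no role given. The 64 control probe sets were left out of gene tests. Per the platform annotation 34945 probe sets named 1 gene, 932 several and 9160 none; 34741 of the Entrez IDs were found in RefSeq (GRCm38.p6). The brightest probe set over the 8 arrays stood for each of 18193 genes, with no filter on dim signal. Groups were compared with limma 3.58.1 (R 4.3.3), lmFit and eBayes, on the 8 arrays of 1 age alone and, for the difference between ages, on all 16, with Benjamini-Hochberg adjustment over all genes; called means an adjusted p under 0.05. Every adjusted p is from limma. Those of control probe sets and of a gene's further probe sets were adjusted over all 45101 probe sets. The test was tested on simulated data. The 4 arrays per group limit the precision.

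The members, gene lists and genes to be named were chosen with earlier results of these data known. Named were Tfrc with each probe set, every gene called higher, the 20 largest falls among called genes with proper symbols and separate groups, the other called genes by their difference, called members of each described list with up to 4 uncalled ones, and the relatives of called genes. The relatives of Casq1, Alas1, Rcan1 and Timp1 were added after values were seen, and Hif1a and Epas1 were also chosen then. Alternatives covered normalisation, probe set choice, dim genes, weights, moderation, the Y-linked mean, animal tags as a block, all arrays together and each array left out.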

Additional observations from a re-analysis of the deposited data

Results flagged for a closer look

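In 6 of 128 groups of 4 arrays of the called genes 1 array stood far from the rest of its group by Dixon's test, which chance alone gives in about 1 in 20 groups. Ctf1 measured 7.52 in wild-type replicate 2 and 7.72 to 7.74 in the rest of the group. Bnip3 measured 11.26 in the same array, against 11.44 to 11.45. Tomm20l measured 7.67 in wild-type replicate 3, against 7.39 to 7.44, and Gpx7 measured 10.01 in wild-type replicate 1, against 9.81 to 9.84. In the knockout group Nqo1 measured 7.84 in replicate 1, against 7.63 to 7.67, and Pdxp measured 8.20 in replicate 4, against 8.33 to 8.34.

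For 11 called genes the change between genotypes differed between the ages, by limma's test of the difference. Day 10 minus day 5, the changes differed by -1.86 for Cabcoco1, -1.73 for Tmod4, -1.05 for Asb5, -0.91 for Tmem141, -0.67 for Ctf1, -0.49 for Cryzl2 and -0.43 for Nqo1. They differed by 1.22 for Slc2a1, 1.07 for Mif, 0.84 for Ak4 and 0.49 for Pdxp. The values of the ages were on different scales, and the part of that in these differences was not tested.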

How the results depend on the processing

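No paired analysis was possible because the labels give groups no shared replicate numbers, those used here following accession order; neighbouring animal tags as a random block, which the labels do not call litters, gave 14 genes higher and 45 lower (consensus correlation -0.077). None of the 64 called genes reversed under any of 17 settings; 22 kept their call with each of the 8 arrays left out in turn, and Ak4, Cabcoco1 and Pdxp kept it under all 17. With 16 arrays sharing 1 spread, 8 genes were called higher and 19 lower at day 5; with trend and robust moderation 31 and 80, among them 12 of the 14 and 46 of the 50; with Y-linked signal as a covariate 2 and 1. Leaving out 1 array gave 5 to 48 genes higher and 19 to 80 lower: 48 and 80 without knockout replicate 1, but 7 and 20 without knockout replicate 2, 5 and 19 without 3, 7 and 23 without 4, and 8 and 37, 10 and 32, 12 and 32, 8 and 25 without wild-type replicates 1 to 4. Other normalisations, probe set rules, the filter on dim genes and array weights moved neither count by over 1.5 times. At day 10, 1572 genes were called, 3709 with 16 arrays, 2637 with array weights and 667 to 2681 with 1 array left out. The change differed between ages in 482 genes, in 812 with array weights and in 240 to 1007 with 1 array left out. Signals under the array median, in 11 falls and in Ch25h, limit the size of those changes.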

Other observations

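Some other gene groups of the day 5 hearts were measured and held few calls. Of 29 measured genes of the extracellular matrix 21 were lower in the knockout, with a median difference of -0.087, and Timp1 was the one called member. Markers of smooth muscle and pericytes were lower in 7 of 10 genes, with a median of -0.12, none called, and their mean level ran from 10.08 to 10.41 in wild-type hearts and from 10.0 to 10.12 in knockout hearts. Of 20 measured fetal and stress genes of the heart 8 were higher and 12 lower, with a median of -0.022, and Rcan1 was the one called member. Neutrophil markers, with a median of 0.081 over 8 genes, were spread widely within both groups, from 6.56 to 7.22 in wild-type hearts and from 6.46 to 7.26 in knockout hearts. Erythroid markers had a median of -0.007 over 5 genes.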
